A study of Mus musculus with 14 samples.

Results

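The genes described here are 51 genes of the lysosome, its proton pump and autophagy, taken by symbol from the 48714 gene labels that all libraries share. They comprise 16 genes of the proton pump, 10 hydrolases, 5 genes of the lysosomal membrane and of lipid handling, 3 lysosomal calcium channels, 3 transcription factors of the TFEB family and 14 autophagy genes. The libraries held total RNA of blood stem cells (haematopoietic stem cells, HSCs) from the bone marrow of C57BL/6 mice. The cells were sorted by calcium into [Ca2+]high (calcium-high) and [Ca2+]low (calcium-low) HSCs, with 7 numbered libraries of 100 cells in each group. The labels name no genotype, treatment, age or sort gate, and do not say whether libraries came from separate animals, so p-values measure only the spread between these libraries. The series' title ties dormancy of HSCs to cytoplasmic calcium, and the comparison addresses how transcripts differ with the calcium level of the sorted cells.

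The lysosome is an acidic organelle in which hydrolases break down proteins, lipids and sugars. Its acidity comes from the V-ATPase, a rotary pump whose V1 sector hydrolyses ATP in the cytosol and whose V0 sector carries protons through the membrane. The lysosome also stores calcium, which leaves through channels such as mucolipin 1 and the two-pore channels. TFEB, TFE3 and MITF are transcription factors that enter the nucleus when mTORC1 is inactive, and they bind E-box elements in the promoters of lysosomal and autophagy genes. Autophagy encloses cytoplasm in a double membrane and delivers it to the lysosome. In HSCs, lysosomes and autophagy are known for their part in keeping the cells quiescent.

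Some promoters of these genes hold an E-box. The genes were chosen by name and role. As TFEB factors are known to bind E-boxes in promoters of such genes, a higher share among them is not an independent result. RefSeq's promoter table (GRCm38.p6, 250 bases before to 50 after a transcript start) had entries for 38 of the 51 genes. Of these, 13 genes (34.2%) held the E-box core CACGTG, against 12.4% of the 7562 tested genes in the table and 8.09% of all 27025. The longer palindrome TCACGTGA, the inner part of the element that TFEB binds, was in 7 of the 38 genes (18.4%), 2.45% of the tested genes and 1.12% of all. Both motifs read the same on either strand, and each copy of the longer one contains the core. A match describes letters and is not evidence of binding. The following stretches show how the core is placed in genes of different roles, with the core, or the longer palindrome where present, in capitals. They are printed 5′ to 3′ on the strand of the gene and none overlaps an exon of the GENCODE M21 annotation.
Mcoln1, 92 to 63 bases before the start, chr8:3500427-3500456, plus strand: cttagaaagggtcgcgcttgtCACGTGttc
Lamp1, 70 to 6 bases before the start, chr8:13159091-13159155, plus strand: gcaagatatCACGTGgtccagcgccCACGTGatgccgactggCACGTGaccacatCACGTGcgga
Atp6v0b, 50 to 6 bases before the start, chr4:117887335-117887379, minus strand: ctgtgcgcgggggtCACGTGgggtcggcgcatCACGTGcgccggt
Atp6v1a, 150 to 110 bases before the start, chr16:44139369-44139409, minus strand: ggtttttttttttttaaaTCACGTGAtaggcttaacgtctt
Atg3, 100 to 56 bases before the start, chr16:45158729-45158773, plus strand: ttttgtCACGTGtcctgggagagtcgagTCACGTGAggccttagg

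The Atp6v1a stretch lies in an intron of a longer GENCODE transcript of that gene, and the other 4 stretches lie outside GENCODE genes. Lamp1, which encodes the main lysosomal membrane glycoprotein, held 4 cores in the stretch shown, more than any other of the 38 genes with an entry. Mcoln1, which encodes mucolipin 1, held a second core inside the longer palindrome from 45 to 40 bases before the start. By role, the core was in 4 of 11 proton pump genes with an entry (Atp6v0b, Atp6v0d1, Atp6v0e and Atp6v1a) and in 4 of 8 hydrolases (Ctsa, Ctsd, Ctsl and Gaa). It was also in 1 of 4 genes of the membrane and lipid group, 1 of 2 calcium channels, 3 of 10 autophagy genes (Atg3, Atg5 and Atg7) and 0 of 3 TFEB family genes. The calcium difference given below had a median log2 value of 0.05 over the 13 genes with the core and 0.02 over the 24 tested genes without it.

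**Figure D1:**
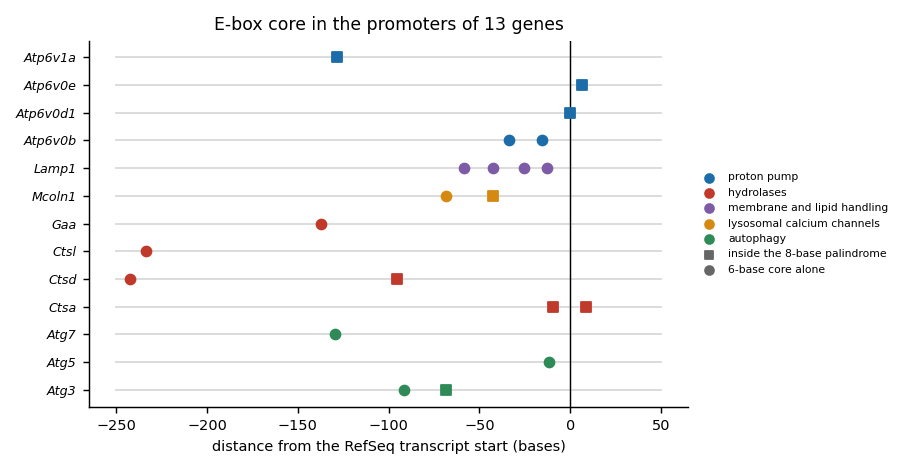
Position of each E-box core (mid-point, horizontal axis, bases from the RefSeq transcript start) in the promoters of 13 genes, 1 row a gene, coloured by role; squares mark cores inside the 8-base palindrome. Lamp1 has 4 cores close to the start, and the cores of Ctsl and 1 of Ctsd lie near the far end of the window.

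Values are RPKM, read numbers scaled to gene length and library size, so levels can be set side by side between genes. Over the 14 libraries the mean of the 9921 genes tested, those with a mean of 1 RPKM or more, had a median of 4.11 RPKM. Psap was the most abundant of the 51 genes at 50.2 ± 18.1 RPKM (mean ± SD, n = 14). It encodes prosaposin, the precursor of the saposins that help hydrolases reach lipids. Next came Ctsd, the aspartic protease cathepsin D, at 38.1 ± 3.52 RPKM and Atp6v0c, which encodes the ring of the V0 sector, at 33 ± 7.4 RPKM. These neighbours in the order differ by less than the larger of their SDs, but not by less than the smaller. The genes were measured in the same libraries, and their order was not tested. The autophagosome protein gene Map1lc3b followed at 27.6 ± 2.47 RPKM, the autophagy receptor gene Sqstm1 at 25 ± 3.26 RPKM and Gabarapl1, of the same family as Map1lc3b, at 24.3 ± 3.34 RPKM. Neighbours among these also differ by less than the larger of their SDs.

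By role, the median of the gene means was 10.1 RPKM in the membrane and lipid group, 8.08 RPKM in hydrolases, 7.43 RPKM in the proton pump, 7.17 RPKM in autophagy genes, 4.64 RPKM in the calcium channels and 1.17 RPKM in the TFEB family. The TFEB family was the least abundant. Tfe3 was at 1.92 ± 0.398 RPKM, Tfeb at 1.17 ± 0.476 RPKM and Mitf at 0.937 ± 0.22 RPKM. Tfeb and Mitf differed by less than the SD of Tfeb. Mitf alone lay below the level for testing, so 50 of the 51 genes were tested. Of the subunits of the proton pump, V0 genes ran up to 33 RPKM and Atp6v1h, a regulatory subunit of V1, had the lowest mean at 1.95 RPKM. Atp6v1c1, Atp6v1e1, Gabarap and Neu1 have 2 to 4 labels each in the files, and the label with the highest mean was used. Reads may be split between such labels, so their values are uncertain.

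Before the calcium comparison, libraries that stand apart need naming. Reads in listed genes numbered 3575282 to 7387840 per library in replicates 1 to 3, and in replicates 4 to 7 they numbered 8280756 to 10296347. These library sets are not stated in the labels. All 15 HSC markers were above 1 RPKM in some library, and their summed level was 235 to 448 RPKM in calcium-high and 233 to 344 RPKM in calcium-low libraries. The summed level of 13 monocyte and macrophage markers was 186 and 153 RPKM in calcium-high replicates 5 and 6 and 42.6 to 67.8 RPKM in the other 5 calcium-high libraries. In calcium-low libraries it was 55.5 to 81.9 RPKM. Of these 13 markers, 7 were highest in calcium-high replicate 5 or 6, and 0 were listed at 0 in all libraries. Calcium-low replicate 3 had a summed level of 773 RPKM for 12 neutrophil markers, against 9.8 to 97.6 RPKM in the other 13 libraries. Calcium-low replicate 3 also had the highest summed level of 13 erythroid markers, 361 RPKM against 118 to 237 RPKM in the others. Car2 and Car1 gave 190 and 120 RPKM of this sum. Car2 was at 98.9 RPKM or more in every library, and Car1 was at 62.5 RPKM in calcium-high replicate 3. Both libraries of replicate 3 had the lowest HSC sum of their group. The part of these transcripts in the results below was not tested. In such bulk samples, fewer cells of a type and less RNA per cell cannot be told apart.

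Between calcium-high and calcium-low HSCs, 0 of the 50 tested lysosome, proton pump and autophagy genes passed. The log2 fold changes, calcium-high minus calcium-low on the log2(RPKM + 1) scale, ran from -0.24 for Map1lc3a to 0.55 for Ctsh. Their 95% intervals reached a median of 0.28 to either side, and those of 49 genes lay within 1 log2 unit of no change. Differences smaller than their intervals were not detectable, and larger ones could fail too, as the intervals are not adjusted over all genes. Those of Atp6v0a1 (0.02 to 0.51) and Ctsh (0.06 to 1.03) left out 0, and neither gene passed. The fit, limma over all 9921 genes with Benjamini-Hochberg adjustment, called 0% of all genes (0 genes, with 669 or 6.74% at an unadjusted p under 0.05). Of the 50, Atp6v0a1 and Ctsh had an unadjusted p under 0.05, and the smallest adjusted p was 0.699. With median-of-ratios scaling 0 of the 50 passed (0.0403% of all genes), as with that scaling and the replicate block described next (2.9%), with the library set as a term (0.514%) and without both libraries of replicate 3 (1.2%).

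Deviations from the group means correlated between libraries with the same number, and a fit with the replicate number as a block was narrower. Libraries with different numbers were not compared in this way, and libraries with the same number also share a library set. Whether the numbers mark true pairs is thus not known, and a pair here means libraries with the same number. By limma with this block, 0.917% of all genes passed (91 of 9921) and 0 of the 50, with a smallest adjusted p of 0.19. At an unadjusted p under 0.05 were 10 of the 50 (20%) against 13.9% of all genes. These were Atp6v0a1, Ctsh, Ctsl, Gaa and Psap, higher in calcium-high HSCs, and Atp6v0e, Npc1, Atg16l1, Map1lc3a and Gabarapl2, lower. The groups overlapped in all 50 genes, and 0.141% of all genes had groups that do not overlap. The direction was the same in all 7 pairs for Ctsl and Gabarapl2, which is 4% of the 50 against 5.51% of all genes.

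**Figure D2:**
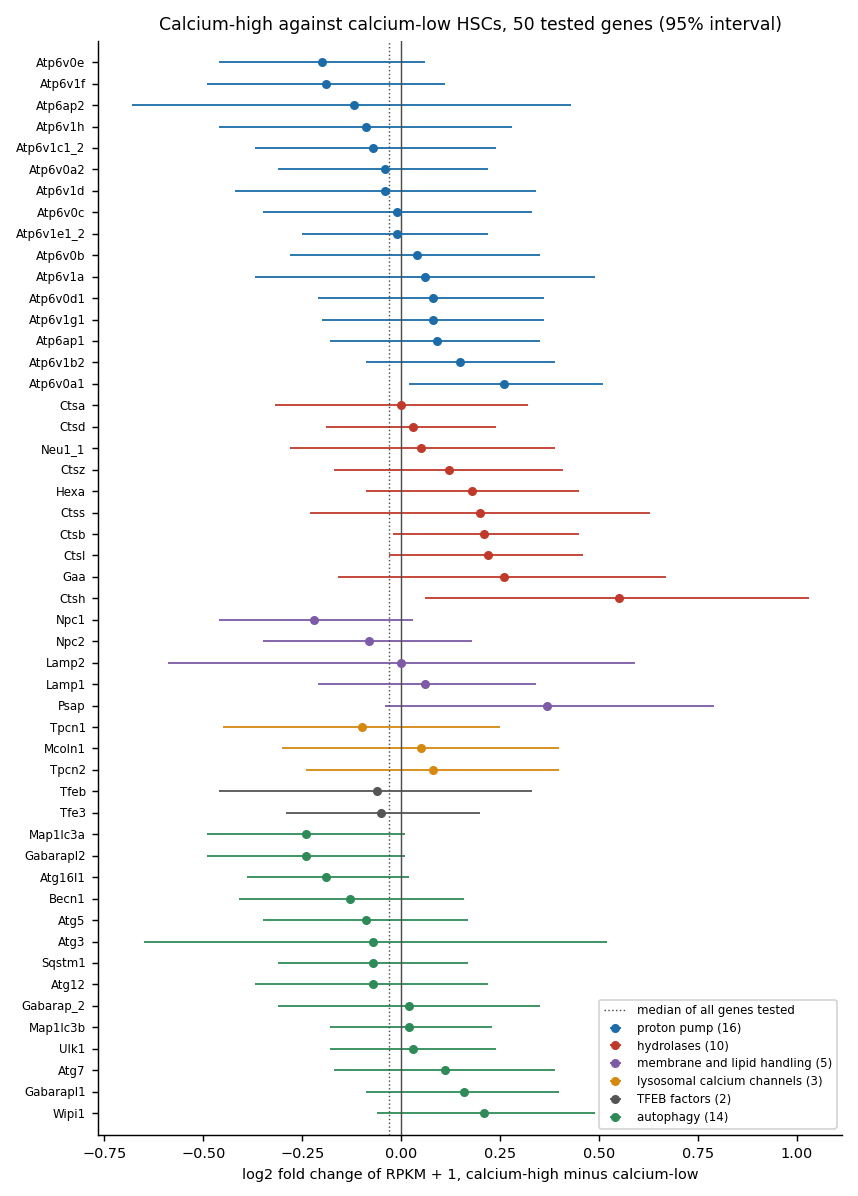
Log2 fold change of RPKM + 1 between calcium-high and calcium-low libraries (horizontal axis) with its 95% interval for the 50 tested genes, grouped and coloured by role; the dotted line is the median of all genes tested. Points run from -0.24 for Map1lc3a to 0.55 for Ctsh, and all hydrolases lie at or above 0.

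Hydrolases lay highest of the roles relative to all genes, though none passed. All 10 had a log2 fold change above that of all genes tested, with Ctsa at 0.00 the lowest, and 42.2% of all genes had one above 0. The median of the 10 was 0.19 against -0.03 over all genes, a difference of 0.22 with an SD of 0.08 over the 7 pairs. In the pairs it was 0.08 to 0.27 above all genes. In replicates 1 to 3 alone 5 of the 10 were higher, where 16.8% of all genes were, and in replicates 4 to 7 alone 10 of the 10, where 73.8% were. Without calcium-high replicates 5 and 6 the median lay 0.12 above that of all genes, and also 0.12 above without calcium-low replicate 3. By limma-voom (weighted, on recovered reads) without calcium-high replicates 5 and 6 it was -0.01 relative to all genes.

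Ctsh, which encodes the aminopeptidase cathepsin H, had the largest difference of the set. It was at 1.93, 1.55, 0.702, 1.46, 4.86, 3.52 and 1.43 RPKM in calcium-high replicates 1 to 7, with a lowest value of 0.353, a median of 1.02 and a highest value of 1.62 RPKM in calcium-low libraries. Calcium-high replicates 5 and 6 lay above every other library, and the other 5 overlapped with calcium-low. The log2 fold change was 0.55 ± 0.23 (SE; limma adjusted p = 0.699, and 0.212 with the block), with 5 of 7 pairs higher. Without calcium-high replicates 5 and 6 it was 0.23 (limma adjusted p = 0.791). Those are the libraries with the highest monocyte markers. Lyz2, which encodes lysozyme, was at 147 and 140 RPKM there and at no more than 77.3 RPKM in the other 12, and Ly6c2 was at 30.1 and 8.87 RPKM against at most 3.72 RPKM. The part of these cells in the result was not tested.

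Ctsl, which encodes the cysteine protease cathepsin L, was higher in calcium-high libraries in all 7 pairs. It was at 1.34 RPKM in the lowest, 1.94 RPKM in the median and 2.55 RPKM in the highest calcium-high library, against 1.2, 1.45 and 2.19 RPKM in calcium-low. The groups overlap, and the highest levels of both lay in replicates 1 to 3. The log2 fold change was 0.22 ± 0.12 (SE, limma adjusted p = 0.809, and 0.258 with the block), and 0.30 without calcium-high replicates 5 and 6. It was 0.22 in replicates 1 to 3 alone and 0.22 in replicates 4 to 7 alone, where the medians of all genes were -0.20 and 0.11. Relative to all genes it was thus larger in replicates 1 to 3. The Ctsl value of calcium-high replicate 5 was the lowest of the calcium-high group, unlike that of Ctsh.

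Ctsb encodes cathepsin B, a cysteine protease of the lysosome. It was at 8.46, 10.8 and 13.2 RPKM in the lowest, median and highest calcium-high library, and at 7.46, 9.2 and 11.1 RPKM in calcium-low. The groups overlap, with 5 of 7 pairs higher, a log2 fold change of 0.21 ± 0.11 (SE) and a limma adjusted p of 0.809 (0.454 with the block). For Ctsb this became 0.14 without calcium-high replicates 5 and 6, and 0.08 with the block and without pairs 5 and 6. Hexa, which encodes the alpha subunit of beta-hexosaminidase, was at 6.18, 7.09 and 8.11 against 4.1, 6.48 and 8.17 RPKM. Its log2 fold change was 0.18 ± 0.13 (limma adjusted p = 0.928), and pairs 1 to 3 were lower while pairs 4 to 7 were higher. It was 0.18 without calcium-high replicates 5 and 6, and 0.04 with the block and without pairs 5 and 6. Gaa, the acid alpha-glucosidase that breaks down glycogen, was named after its values were seen. It was at 9.78, 21.8 and 22.9 against 8.43, 16.3 and 18.8 RPKM, higher in 6 of 7 pairs (limma adjusted p = 0.943, and 0.193 with the block).

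**Figure D3:**
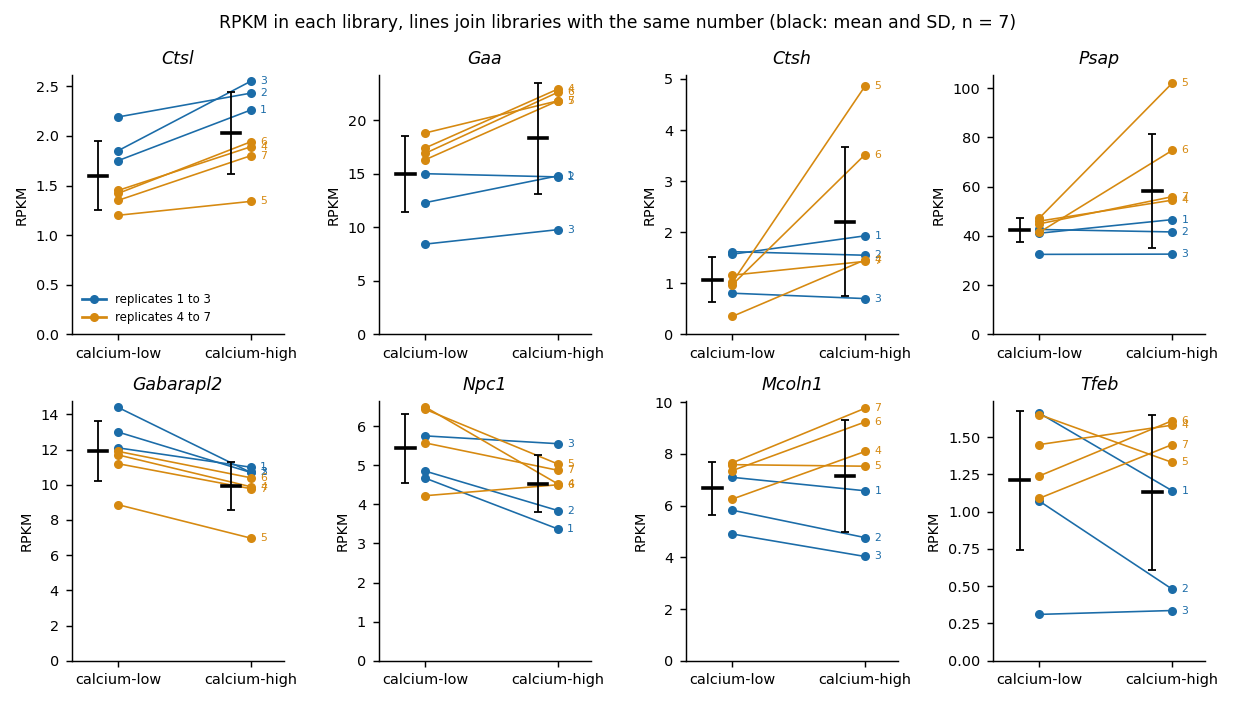
RPKM (vertical axis, from 0) of 8 genes in calcium-low and calcium-high libraries; lines join libraries with the same number, blue for replicates 1 to 3 and orange for 4 to 7, and black marks give the mean and SD (n = 7). Ctsl is higher and Gabarapl2 lower in calcium-high in every pair, while Ctsh and Psap stand out in calcium-high replicates 5 and 6.

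Of the membrane and lipid group, Psap was at 46.6, 41.6, 32.6, 54.5, 102, 74.7 and 55.9 RPKM in calcium-high replicates 1 to 7. In calcium-low libraries it was at 32.5 RPKM in the lowest, 42.6 RPKM in the median and 47.3 RPKM in the highest. All 4 calcium-high libraries of replicates 4 to 7 lay above every calcium-low library, and those of replicates 1 to 3 lay within the calcium-low range. The log2 fold change was 0.37 ± 0.20 (SE; limma adjusted p = 0.809, and 0.235 with the block), 0.05 in replicates 1 to 3 and 0.62 in replicates 4 to 7 (limma adjusted p = 0.0437 there). Without calcium-high replicates 5 and 6, which carry the monocyte transcripts given above, it was 0.11 (limma adjusted p = 0.914). Their part in the result was not tested.

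Npc1 and Npc2 together move cholesterol out of the lysosome, Npc1 in the membrane and Npc2 in the lumen. Npc1 was at 3.37, 4.52 and 5.55 RPKM in the lowest, median and highest calcium-high library and at 4.22, 5.57 and 6.49 RPKM in calcium-low. It was lower in 6 of 7 pairs, with a log2 fold change of -0.22 ± 0.12 (SE; limma adjusted p = 0.809, and 0.293 with the block), and the groups overlap. Npc2 was at 3.87, 4.38 and 7.26 against 4.17, 4.84 and 6.53 RPKM (log2 fold change -0.08 ± 0.12, limma adjusted p = 0.992). Lamp1, whose promoter is shown above, was at 16.4, 19.1 and 24.8 against 15.1, 17.8 and 24.3 RPKM (log2 fold change 0.06 ± 0.13, limma adjusted p = 0.997). It was lower in pairs 1 to 3 and higher in pairs 4 to 7.

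In the proton pump, 7 of 16 genes had a log2 fold change above 0 and 9 below, and their median of -0.01 lay 0.02 above that of all genes. Among all genes 42.2% lay above 0. The 6 V0 genes split 3 and 3, the 8 V1 genes 3 and 5, and the 2 accessory genes 1 and 1. Atp6v0a1, 1 of the alternative V0 subunits that place the pump on a given membrane, was at 3.08, 3.36 and 4.54 RPKM in the lowest, median and highest calcium-high library. In calcium-low it was at 1.93, 3.19 and 3.39 RPKM. The groups overlap, with 5 of 7 pairs higher, a log2 fold change of 0.26 ± 0.11 (SE; limma adjusted p = 0.711, and 0.338 with the block), -0.02 in replicates 1 to 3 and 0.48 in replicates 4 to 7. Atp6v0e, a small V0 subunit, was at 11.3, 12.8 and 19.3 against 14, 16 and 19.2 RPKM (log2 fold change -0.20 ± 0.12, limma adjusted p = 0.864). In V1, the ATP-binding subunit gene Atp6v1b2 was at 9.51, 10.3 and 12.1 against 7.61, 9.12 and 11.7 RPKM (log2 fold change 0.15 ± 0.11, limma adjusted p = 0.943). That of Atp6v1b2 was 0.10 without calcium-high replicates 5 and 6, and 0.03 with the block and without pairs 5 and 6. The stalk subunit gene Atp6v1f was at 11.8, 16 and 23.1 against 16, 19.7 and 22.3 RPKM (log2 fold change -0.19 ± 0.14, limma adjusted p = 0.929). Subunits of the same complex had values on both sides of 0.

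The 3 lysosomal calcium channels did not pass in either fit. Mcoln1 was at 4.03, 7.52 and 9.76 RPKM in the lowest, median and highest calcium-high library and at 4.9, 7.09 and 7.65 RPKM in calcium-low. Its calcium-high values were the lowest and the highest of all 14, the former in replicate 3 and the latter in replicate 7. The log2 fold change was 0.05 with an interval from -0.30 to 0.40 (limma adjusted p = 0.998, and 0.877 with the block), -0.19 in replicates 1 to 3 and 0.23 in replicates 4 to 7. It turned to -0.05 without calcium-high replicates 5 and 6. Tpcn1 and Tpcn2 encode the two-pore channels 1 and 2. Tpcn1 was at 2.35, 4.39 and 6.63 against 3.24, 5.11 and 5.91 RPKM, with an interval of the log2 fold change from -0.45 to 0.25. Tpcn2 was at 1.86, 2.51 and 3.53 against 1.47, 2.82 and 3.37 RPKM, with an interval from -0.24 to 0.40.

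The TFEB family did not pass either. Tfeb was at 0.337, 1.33 and 1.61 RPKM in the lowest, median and highest calcium-high library and at 0.311, 1.24 and 1.66 RPKM in calcium-low, with the lowest value of each group in replicate 3. Its log2 fold change was -0.06 with an interval from -0.46 to 0.33 (limma adjusted p = 0.998). Tfe3 was at 1.5, 1.69 and 2.75 against 1.6, 1.8 and 2.49 RPKM, with an interval from -0.29 to 0.20. Mitf was at 0.791, 0.937 and 1.16 against 0.608, 0.833 and 1.37 RPKM. These factors are regulated mainly by where in the cell they are, which RNA levels do not show.

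Of the 14 autophagy genes, 6 had a log2 fold change above 0 and 8 below, with a median 0.04 below that of all genes. Among all genes 42.2% lay above 0. With the block 3 of the 14 (21.4%) had an unadjusted p under 0.05, against 13.9% of all genes, and these 3 were lower. Gabarapl2 encodes an LC3-like protein that is attached to the autophagosome membrane. It was at 11, 10.7, 10.7, 9.89, 6.97, 10.4 and 9.78 RPKM in calcium-high replicates 1 to 7 and at 12.1, 14.4, 13, 11.7, 8.87, 11.9 and 11.2 RPKM in calcium-low. Each calcium-high library was below the calcium-low library of the same number, and the groups overlap because replicate 5 was low in both. The log2 fold change was -0.24 ± 0.12 (SE, limma adjusted p = 0.769, and 0.19 with the block), but 0.01 by limma-voom without calcium-high replicates 5 and 6. It was -0.26 in replicates 1 to 3 and -0.22 in replicates 4 to 7, where the medians of all genes were -0.20 and 0.11. Relative to all genes, Gabarapl2 was thus lower mainly in replicates 4 to 7. Its relative Gabarapl1, named after its values were seen, went the other way. It was at 18.9, 26.2 and 28.5 RPKM in the lowest, median and highest calcium-high library against 20.3, 21.9 and 27.6 RPKM, higher in 6 of 7 pairs (limma adjusted p = 0.929, and 0.479 with the block).

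Map1lc3a, another gene of the LC3 family, was at 2.29, 2.55 and 4.07 RPKM in the lowest, median and highest calcium-high library and at 2.91, 3.6 and 4.62 RPKM in calcium-low. It was lower in 6 of 7 pairs (log2 fold change -0.24 ± 0.12, limma adjusted p = 0.775, and 0.326 with the block). Atg16l1, which directs the attachment of LC3 to membranes, was at 3.08, 3.43 and 4.66 against 3.8, 4.32 and 5.1 RPKM. It was also lower in 6 of 7 pairs (log2 fold change -0.19 ± 0.10, limma adjusted p = 0.809, and 0.335 with the block). Wipi1, which binds a phosphoinositide on the forming autophagosome, was at 1.27, 1.64 and 2.03 against 0.67, 1.44 and 1.67 RPKM (log2 fold change 0.21 ± 0.13, limma adjusted p = 0.876). In these 3 genes the groups overlap.

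**Figure D4:**
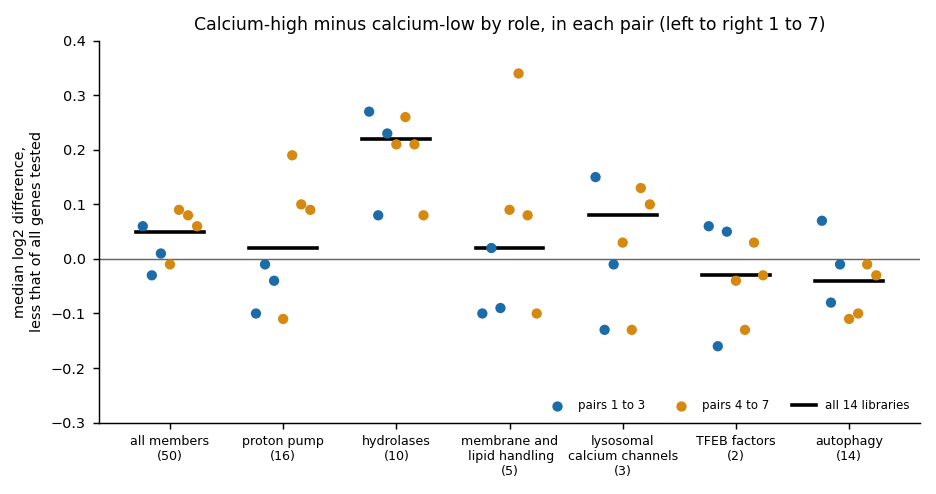
Median log2 difference between calcium-high and calcium-low libraries of each role, less that of all genes tested (vertical axis), in each of the 7 pairs (dots) and over all 14 libraries (bars); the number of tested genes is in brackets. Hydrolases lie above 0 in all 7 pairs, from 0.08 to 0.27, and the other roles have dots on both sides of 0.

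The calcium difference was also taken within each library set, where it shifted for these genes as for all genes. Median-of-ratios factors, higher where values run high over all genes, were 0.892 to 0.945 in calcium-high and 0.993 to 1.17 in calcium-low replicates 1 to 3. In replicates 4 to 7 they were 1.02 to 1.1 in calcium-high and 0.916 to 0.99 in calcium-low. The fits by library set did not use this scaling, and its part in the shift was not tested. In replicates 1 to 3, 9 of the 50 genes were higher in calcium-high HSCs (16.8% of all genes), and in replicates 4 to 7, 39 were (73.8% of all genes). The median log2 fold change over the 50 was -0.19 and 0.13, against -0.20 and 0.11 over all genes, so the shift of the 50 was of about the size of that over all genes. In 8 genes (16%, against 9.9% of all genes) pairs 1 to 3 were all lower and pairs 4 to 7 all higher. They were the pump subunit genes Atp6v0d1, Atp6v1a, Atp6v1b2 and Atp6v1g1, with Lamp1, Lamp2, Hexa and Gabarap_2. A limma model with the block and a term for calcium by library set called 0 of the 50 and 1.66% of all genes (165). At an unadjusted p under 0.05 were 26 of the 50, each with a more positive difference in replicates 4 to 7, against 36.8% of all genes in that direction.

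In replicates 4 to 7 alone, limma called 6 of the 50, all of them higher, against 8.14% of all genes. Shares of all genes in this paragraph count calls in either direction, and none of its fits used median-of-ratios scaling. The 6 genes were Atp6v0a1, Atp6v1b2, Ctsb, Gaa, Psap and Gabarapl1. With the block in those libraries it called Ctsb, Ctsh, Gaa, Hexa, Psap and Gabarapl1, against 6.61% of all genes. On whole reads recovered from the RPKM values, limma-voom called Atp6v0a1, Ctsb and Ctsh higher and Npc1 lower over all 14 libraries (7.06% of all genes). That fit weighted calcium-high replicates 4, 6 and 7 at 2.1, 2.61 and 1.63, and the other calcium-high libraries at 0.342 to 0.934. Calcium-low replicates 4 to 7 had weights of 1.31 to 2.2, and calcium-low replicates 1 to 3 of 0.19 to 0.652. It thus rested mostly on replicates 4 to 7. With the block, limma-voom called Atp6v0a1, Ctsb, Ctsh, Gaa, Psap and Gabarapl1 higher (8.46% of all genes). Replicates 4 to 7 include the calcium-high libraries with the monocyte transcripts, replicates 5 and 6. Without these libraries limma called 0 of the 50 in replicates 4 to 7 (3.42% of all genes). With the block in pairs 4 and 7 alone it called Atp6v0a1, higher (5.21% of all genes). Over all libraries 0 of the 50 passed by limma without calcium-high replicates 5 and 6, and 0 by limma or limma-voom with the block and without pairs 5 and 6 (2.9% of all genes for limma-voom).

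Limma-voom without the block and without calcium-high replicates 5 and 6 called 10 of the 50, which is 20%, as it is for all genes (20%). Atp6v0a1, Atp6v1a, Atp6v1b2, Atp6ap2, Ctsb, Ctsl, Lamp2 and Gabarapl1 were higher, and Atp6v0e and Npc1 lower. In that fit the libraries of most weight were replicates 1 and 2 in calcium-high (2.97 and 1.93, against 0.538 to 0.739 for the other 3). In calcium-low they were replicates 4 to 7 (1.33 to 2.23, against 0.199 to 0.671), so in that fit calcium level and library set were partly confounded.

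The library sets differed more from each other than the calcium groups did. By limma with calcium level and library set as terms, 22 of the 50 genes differed between replicates 4 to 7 and 1 to 3, against 48.8% of all genes. Higher in replicates 4 to 7 were 14 genes (25% of all genes were) and lower 8 (23.8% of all genes). Lamp2, a membrane protein needed for autophagosomes to fuse with lysosomes, was at 13.2 to 16.8 RPKM in replicates 1 to 3 and 5.35 to 7.34 RPKM in replicates 4 to 7. Its log2 difference was -1.09 ± 0.09 (SE; limma adjusted p = 7.86e-07). Atg3, the enzyme that transfers LC3 to lipid, was at 2.08 to 5.13 against 0.804 to 1.57 RPKM (-1.01 ± 0.14, limma adjusted p = 4.42e-05). Gaa was at 8.43 to 15 against 16.3 to 22.9 RPKM (0.64 ± 0.12, limma adjusted p = 4.42e-04). The sets did not overlap in 10 of the 50 genes (20%, against 17.1% of all genes).

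Within the proton pump, called genes lay on both sides between the sets. The difference between the sectors was not tested. Of the 6 V0 genes, Atp6v0b, Atp6v0c and Atp6v0e were higher in replicates 4 to 7 and 0 were lower. Of the 8 V1 genes, Atp6v1a, Atp6v1c1_2, Atp6v1d and Atp6v1h were lower and 0 were higher, and the accessory gene Atp6ap2 was lower as well. Genes that did not pass lay on the other side too, with Atp6v0d1 at a log2 difference of -0.13 in V0 and Atp6v1f at 0.28 in V1 (limma adjusted p = 0.414 and 0.0546). Atp6v0b was at 11.1 to 13.6 RPKM in replicates 1 to 3 and 14.9 to 20 RPKM in replicates 4 to 7 (0.47 ± 0.09, limma adjusted p = 5.23e-04). Atp6v1a, the catalytic subunit gene, was at 7.07 to 9.92 against 3.5 to 5.97 RPKM (-0.69 ± 0.12, limma adjusted p = 2.13e-04). Of the regulators, Mcoln1 (0.46 ± 0.12, limma adjusted p = 0.00413), Tpcn2 (0.48 ± 0.10, limma adjusted p = 8.34e-04) and Tfeb (0.45 ± 0.15, limma adjusted p = 0.022) were higher in replicates 4 to 7. Depth also differed between the sets, and its part in these differences was not tested.

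**Figure D5:**
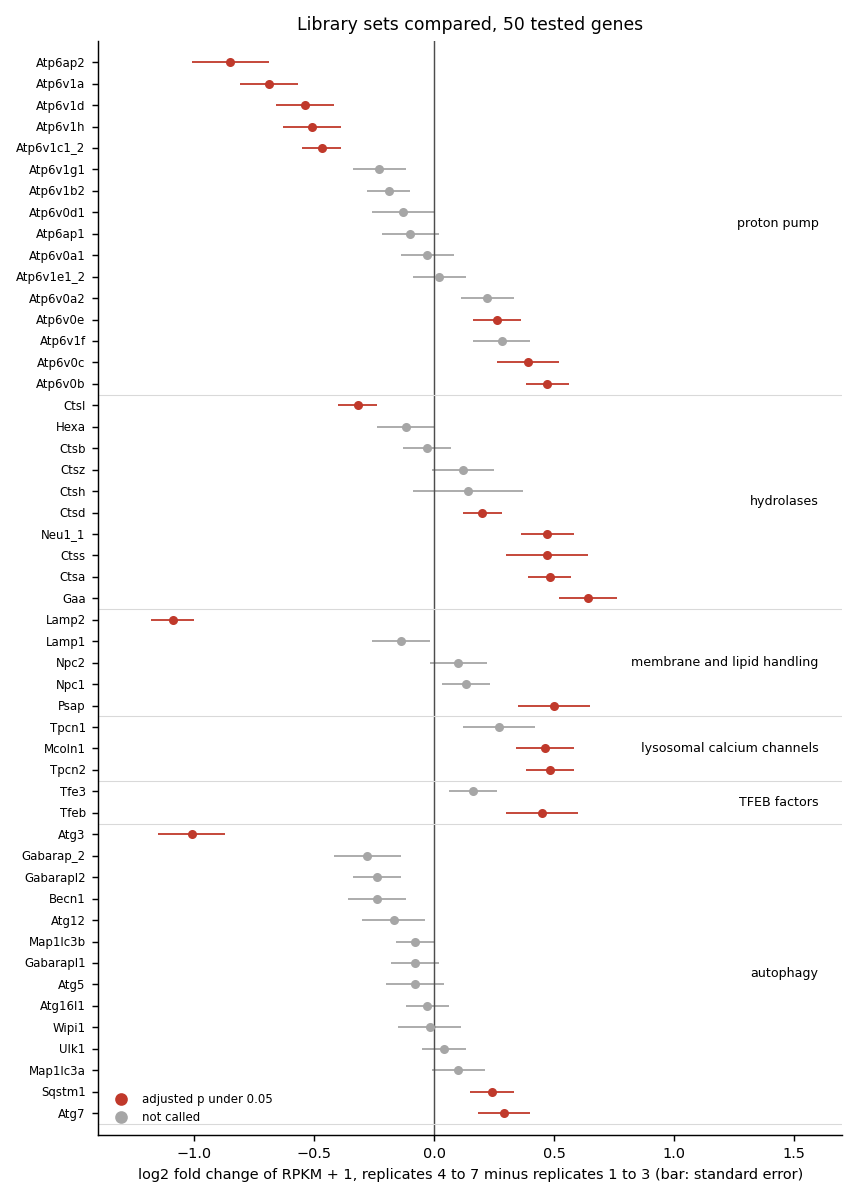
Log2 fold change of RPKM + 1 between replicates 4 to 7 and replicates 1 to 3 (horizontal axis, bars are standard errors) for the 50 tested genes by role; red marks an adjusted p under 0.05. Lamp2 at -1.09 and Atg3 at -1.01 lie lowest and Gaa at 0.64 highest.

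Other genes of the same pathways were read in 5 lists. Without the block limma called 0 genes in any of them (0 of all genes), and with it 1 (0.917% of all genes). The lists held 8 other tested proton pump genes, 39 other hydrolases and activators, 28 other genes of the lysosomal membrane and of sorting, 26 genes of mTORC1 and folliculin signalling at the lysosome, and 42 other autophagy genes. Of these, 4, 29, 19, 12 and 26 had a log2 fold change above 0, as 42.2% of all genes had. On whole reads limma-voom called 4 hydrolases and activators, 2 membrane and sorting genes, 1 signalling gene and 3 autophagy genes higher. It called 1 hydrolase or activator and 2 autophagy genes lower, and 7.06% of all genes in either direction. The gene called with the block was Vmp1, which encodes a membrane protein of the endoplasmic reticulum needed for autophagosome formation (chromosome 11, 86583858 to 86683836 in RefSeq GRCm38.p6). It was at 15.6, 16.3, 9.84, 12, 16.9, 12.6 and 12.5 RPKM in calcium-high replicates 1 to 7 and at 19.1, 19.1, 15, 23.2, 21.6, 25.4 and 26.9 RPKM in calcium-low. Every pair was lower in calcium-high, and the groups overlap because calcium-low replicate 3 lay within the calcium-high range. The log2 fold change was -0.61 ± 0.14 (SE; limma adjusted p = 0.152, and 0.0372 with the block), -0.35 in replicates 1 to 3 and -0.81 in replicates 4 to 7. The call with the block was lost without any 1 of pairs 1, 2, 4, 5, 6 and 7 (limma adjusted p = 0.0607, 0.068, 0.148, 0.0617, 0.137 and 0.168) and held without pair 3 (limma adjusted p = 0.0207).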

How the data were processed

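The files give RPKM computed by the authors, 1 file per library; the header names no unit, and RPKM was read from the deposited values, which are whole multiples of a step per gene. Whole reads were recovered for all 18207 labels above 0 (within 0.02 reads). The submitters' processing notes name GRCm38, mm10 and edgeR without further detail; the alignment and counting tools are not given in the sources used here. Of 48737 labels, 23 turned into serial numbers in some files were left out. limma 3.58.1 (trend option, R 4.3.3) was fitted to log2(RPKM + 1) of the 9921 labels whose mean reached 1 RPKM, at an adjusted p under 0.05; a pseudocount of 1 understates the changes of low genes. The design without a block was the main one. Deviations of libraries with the same number correlated at 0.384 to 0.715 in all 7 pairs, so blocked values are given too. Libraries with different numbers were not compared, so this does not show that the numbers mark true pairs. Named are the calcium channels, the TFEB family, the 4 genes of smallest p in each other role, and called genes. The 51 genes, their roles and the other lists were chosen with earlier results of these data known. The design listed scalings, pseudocounts, filters, limma-voom, library sets and left-out libraries as alternatives; fits without calcium-high replicates 5 and 6, on library sets as a comparison, limma-voom or replicates 4 to 7 with the block, and either without replicates 5 and 6, were added after the data were seen. Scripts were tested on simulated data with larger changes than these genes had and no difference between library sets. That checks the code and not the results given here. Tables were summarised with Python 3.11.15 and pandas 2.3.3.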

Additional observations from a re-analysis of the deposited data

Results flagged for a closer look

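In 4 of 46 groups of 7 libraries examined for the named genes, 1 library stood apart from the other 6 by Dixon's gap test at its 95% limit, which chance gives in about 1 of 20 groups. Calcium-low replicate 5 had 19.2 RPKM of Atp6v0e, and the rest of its group 14 to 16.1 RPKM. Calcium-low replicate 3, the library with neutrophil transcripts, had 32.5 RPKM of Psap, and the rest of its group 41.1 to 47.3 RPKM. Calcium-high replicate 5, which had the highest monocyte markers, had 7.26 RPKM of Npc2, and the rest of its group 3.87 to 5.14 RPKM. The same library had 6.97 RPKM of Gabarapl2, against 9.78 to 11 RPKM.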

How the results depend on the processing

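With the replicate number as a block, 91 genes of all tested passed against 0 without it, and 288 with both the block and another scaling (median of ratios). Without the block, the count was 4 with that scaling, 1 with no filter, 700 with limma-voom, 51 with the library set as a term, 808 in replicates 4 to 7 alone and 119 without both libraries of replicate 3. It was 839 with limma-voom and the block, and 656 with the block in replicates 4 to 7. Without calcium-high replicates 5 and 6 it was 1980 with limma-voom and 339 in replicates 4 to 7. With the block and without pairs 5 and 6 it was 288 with limma-voom and 517 in replicates 4 to 7. Of the 51 genes, 4, 6, 6 and 6 passed with limma-voom, with limma-voom and the block, in replicates 4 to 7, and there with the block. Without calcium-high replicates 5 and 6, 10 passed with limma-voom, and 1 passed with the block in pairs 4 and 7. In the other fits 0 passed. Leaving out 1 library gave 0 to 101 called genes of all (101 without calcium-high replicate 3, 20 without calcium-low replicate 3). Leaving out 1 pair with the block gave 0 to 302 (8, 3, 302, 0, 12, 2 and 0 without pairs 1 to 7).

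The median of the hydrolases, less that of all genes, was 0.11 with a pseudocount of 5, 0.13 with limma-voom, 0.10 in replicates 4 to 7 with or without the block, and 0.12 without calcium-high replicates 5 and 6. It was 0.12 to 0.24 without 1 library and 0.17 to 0.23 without 1 pair. That of autophagy genes was -0.06 to 0.02 without 1 library. That of the whole set was 0.00 in replicates 1 to 3 and 0.01 with the block in pairs 4 and 7. In replicates 1 to 3 that of the proton pump was -0.05 and that of autophagy genes 0.02. With limma-voom and without calcium-high replicates 5 and 6, hydrolases were at -0.01, the proton pump at 0.20, calcium channels at -0.18 and TFEB factors at -0.37.

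The sign of some genes turned, counted from 0 and not from the median of all genes. With limma-voom Tfeb was at 0.02. In replicates 1 to 3 Mcoln1 was at -0.19, Atp6v0a1 at -0.02, Atp6v1b2 at -0.10, Ctsb at -0.08, Hexa at -0.14, Lamp1 at -0.26, Wipi1 at -0.12 and Gabarapl1 at -0.02. The median of all genes was -0.20 there, and of these genes Lamp1 lay below it and the others above. In replicates 4 to 7 that median was 0.11. In replicates 4 to 7, with or without the block, Tpcn1 was at 0.12, Tfeb at 0.08 (0.10 without calcium-high replicates 5 and 6, 0.15 with the block in pairs 4 and 7), Tfe3 at 0.03 and Npc2 at 0.12. Without calcium-high replicates 5 and 6 Mcoln1 was at -0.05 and Lamp1 at -0.03, and Lamp1 at -0.07 with the block and without pairs 5 and 6. With limma-voom and without those libraries Mcoln1 was at -0.06, Tpcn2 at -0.14 and Gabarapl2 at 0.01. Tfe3 was at 0.00 without both libraries of replicate 3. Without 1 library, Mcoln1 ran from -0.02 to 0.16, Tpcn1 from -0.19 to 0.01, Tpcn2 from -0.00 to 0.14 and Tfeb from -0.18 to 0.04. With the block and without 1 pair, Tfeb, Tfe3 and Lamp1 reached 0.01, 0.00 and -0.00. The cause was not tested. Vmp1 passed with the block, limma-voom, the set as a term, replicates 4 to 7 and without replicate 3, among others. Depth limits the genes near 1 RPKM: Ctss, Ctsh, Tfeb and Neu1 had 10, 20, 23 and 31 reads in their lowest library.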

Other observations

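Of the 51 genes, 19 had their highest value of all 14 libraries in calcium-high replicate 5, 9 in calcium-low replicate 1 and 9 in calcium-low replicate 3. The same count was not made over all genes, so it is not known to be particular to this set. Values in these libraries ran high over all genes, with median-of-ratios factors of 1.1, 1.17 and 1.11 against 0.892 to 1.06 in the others. Genes highest in calcium-high replicate 5 included the cathepsin genes Ctsa, Ctsb, Ctsh, Ctss and Ctsz, with Psap, Npc2 and Lamp1. In calcium-low replicate 3, Atp6ap2, which encodes the prorenin receptor that is also an accessory protein of the pump, was at 18.4 RPKM. It was at 3.51 to 9.63 RPKM in the other 13 libraries. The autophagy genes Becn1 and Atg12 were at 13 and 11.6 RPKM there. Tecpr1, which encodes a protein that joins autophagosomes to lysosomes, had a mean of 4.14 ± 0.941 RPKM (SD, n = 7) in the calcium-high group against 2.90 ± 0.884 RPKM. It was higher in all 7 pairs and did not pass by limma (adjusted p = 0.0506 with the block and 0.672 without it). By limma-voom it passed (log2 fold change 0.50, adjusted p = 0.0323). The genes of this paragraph were chosen once their values were known.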
